A study of Drosophila melanogaster with 3 samples.

Results

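Cytoplasmic ribosomal protein genes of Drosophila melanogaster were examined for binding of CG4617 fused at its C terminus to GFP. The genes were taken by symbol alone, as protein-coding genes whose Ensembl symbol starts with RpL or RpS followed by a digit, P or A, plus sta. This gave 93 genes of 13968 protein-coding genes, 54 of the large subunit and 39 of the small. Chromatin immunoprecipitation with sequencing was done with an anti-GFP antibody on mixed-sex whole embryos aged 0 to 24 hours from 1 stable transgenic line. There was 1 group, CG4617-eGFP anti-GFP ChIP, with 3 biological replicates, and no control sample was analysed here. The transgene's promoter is not given in the labels, and replicates are labelled as separate biosamples of the same line.

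Each cytoplasmic ribosome is built from a large and a small subunit, and nearly every ribosomal protein is needed in equal amount and in every cell. In flies, losing 1 copy of many of these genes gives the Minute phenotype, with slow development and short thin bristles. Their promoters are known for the TCT initiator, a pyrimidine-rich element at the start site that replaces the usual initiator in flies and in mammals. Some proteins are encoded by more than 1 gene copy, and several of the second copies are known for expression in the germ line.

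The start regions that the results turn on are shown from 100 bases before to 30 bases after the annotated transcription start site (TSS), 5′ to 3′ in the direction of transcription, from the RefSeq copy of the Release 6 (dm6) genome. Where a gene has several starts, the one nearest the peak summit was used. For a gene without a promoter peak, the most upstream start is shown. Capitals mark the letters searched for. TATCGATA is the core of the DNA replication-related element (DRE), the site of the factor Dref. GGTCACAC is the core of Motif 1, the site of the factor M1BP. An E-box was searched as CAGCTG, which some basic helix-loop-helix factors bind. The TATA box was searched as TATAAA, in the form that the TATA-binding protein prefers. The element of the GAGA factor was searched as GAGAG, and like those before it on both strands. The TCT initiator was searched as TCTTT on the sense strand, with its first base within 10 bases of the start. Such a match, called the TCT letters below, need not lie at the start site itself. None of these motifs contains another. The genes with the 3 strongest promoter peaks come first, followed by the second RpL34 copy.
RpL7, chr2L:10200904-10201033, plus strand: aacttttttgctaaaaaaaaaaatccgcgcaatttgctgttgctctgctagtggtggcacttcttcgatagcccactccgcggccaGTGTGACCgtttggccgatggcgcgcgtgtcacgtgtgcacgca
RpS27, chr3R:25247485-25247614, minus strand: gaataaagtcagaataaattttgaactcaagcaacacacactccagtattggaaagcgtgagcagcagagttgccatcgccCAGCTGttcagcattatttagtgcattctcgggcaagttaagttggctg
RpL34b, chr3R:9401197-9401326, minus strand: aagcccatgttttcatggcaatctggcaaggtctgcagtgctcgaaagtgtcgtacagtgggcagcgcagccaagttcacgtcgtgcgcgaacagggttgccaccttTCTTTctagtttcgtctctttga
RpL34a, chr3R:26059238-26059367, minus strand: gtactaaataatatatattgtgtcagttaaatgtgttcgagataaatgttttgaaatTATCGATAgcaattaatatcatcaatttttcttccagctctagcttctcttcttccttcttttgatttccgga
The RpL7 start held Motif 1 at position -14, counted from the start site as 1. The start of RpS27 held an E-box at -19, that of RpL34b the TCT letters at 8, and that of RpL34a, the weaker copy, the DRE core at -43.

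The next set holds both tandem copies of RpS14, and 4 genes with no promoter peak, among them both RpL10A copies.
RpS14a, chrX:7933642-7933771, plus strand: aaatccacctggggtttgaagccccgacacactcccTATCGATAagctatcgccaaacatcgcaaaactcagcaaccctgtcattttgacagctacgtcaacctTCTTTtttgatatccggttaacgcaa
RpS14b, chrX:7934798-7934927, plus strand: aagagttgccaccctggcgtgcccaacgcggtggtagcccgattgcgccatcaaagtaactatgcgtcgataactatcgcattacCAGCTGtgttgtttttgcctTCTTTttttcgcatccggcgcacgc
RpS6, chrX:7901302-7901431, minus strand: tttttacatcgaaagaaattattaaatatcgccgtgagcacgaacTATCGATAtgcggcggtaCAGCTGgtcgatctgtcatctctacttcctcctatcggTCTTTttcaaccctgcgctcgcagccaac
RpS9, chr3L:9511502-9511631, minus strand: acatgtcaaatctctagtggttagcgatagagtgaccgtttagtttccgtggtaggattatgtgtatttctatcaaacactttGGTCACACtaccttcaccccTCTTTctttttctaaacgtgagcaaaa
RpL10Ab, chr3L:11822751-11822880, plus strand: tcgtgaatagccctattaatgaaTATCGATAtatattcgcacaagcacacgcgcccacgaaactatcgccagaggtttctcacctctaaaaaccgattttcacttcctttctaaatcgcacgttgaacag
RpL10Aa, chr3R:15037266-15037395, plus strand: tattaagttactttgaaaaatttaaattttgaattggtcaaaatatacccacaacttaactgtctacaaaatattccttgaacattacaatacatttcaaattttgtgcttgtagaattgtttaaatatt
RpS6 and RpS9 had no thresholded peak although their starts held the same kinds of letters as genes with one. RpS6 held the DRE core at -55, an E-box at -37 and the TCT letters at 2, and RpS9 held Motif 1 at -17 and the TCT letters at 4. The DRE core stood at -77 in RpL10Ab and at -64 in RpS14a. None of the 6 motifs was in the shown window of RpL10Aa, which says nothing about the factors that may act there.

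Each deposited list holds genomic regions with a signal per region, which is the value the authors gave it. Its scale is stated nowhere, so signals were compared within a list only. A thresholded list of 5558 peaks was made by the authors from the replicates through the irreproducible discovery rate (IDR) procedure, out of a pooled list of 20051 regions. The replicate lists held 30000, 17251 and 14368 regions for replicates 1, 2 and 3. The files state no read numbers, so depth is unknown, and no interval for counting error can be given. A promoter peak here means a summit no more than 500 bp from any TSS of the gene. No comparison between groups exists in this design, so counts over these genes are descriptions beside the same count over all protein-coding genes, with no test.

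Most ribosomal protein genes carried a promoter peak. It was found at 79 of the 93 genes, 84.9%, against 37.1% of all 13968 protein-coding genes. The large subunit had one at 48 of 54 genes and the small subunit at 31 of 39. The chromatin came from whole embryos, so fewer bound cells and weaker binding per cell cannot be told apart. No 2 of these genes shared a peak, so the 79 genes stood at 79 distinct peaks. The 14 genes without a peak are given with the values they had in the other lists.

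The count held in each replicate. Among the 5558 strongest regions of each, a summit lay within 500 bp of a TSS at 80 of 93 ribosomal protein genes against 37.7% of all genes in replicate 1, at 77 against 36.4% in replicate 2 and at 70 against 33.7% in replicate 3. The share over replicates was 81.4% ± 5.52 (SD, n = 3). The share was above that of all genes in every replicate, by more than the spread between replicates. Of the 79 thresholded summits, 59 lay inside one of the strongest regions of all 3 replicates, 18 of 2 replicates and 2 of 1. The 59 genes are 63.4% of the 93, against 26.1% of all genes by the same rule. The thresholded list was derived from these replicates, so their support describes it and is no separate check.

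**Figure D1:**
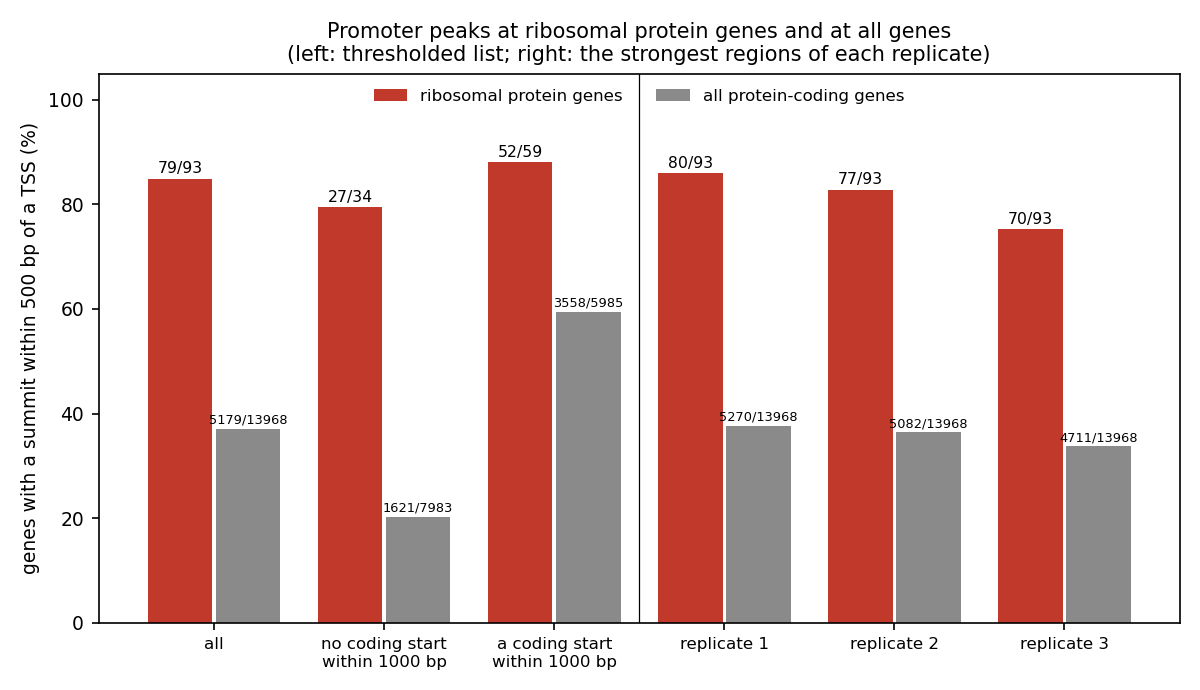
Bars give the percentage of ribosomal protein genes (red) and of all protein-coding genes (grey) with a summit within 500 bp of a TSS, with counts above each bar. The red bar stands above the grey one in the thresholded list, in genes with and without a neighbouring start, and in all 3 replicates, from 75.3% to 88.1% in red and from 20.3% to 59.4% in grey.

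Genes that start close to another gene had peaks more often in these data, and the ribosomal protein genes were above all genes both with and without such a neighbour. Of the ribosomal protein genes, 34 had no TSS of another protein-coding gene within 1000 bp, and 27 of them, 79.4%, had a peak, against 20.3% of all such genes. The other 59 had a neighbouring start, and 52 of them, 88.1%, had a peak, against 59.4% of all genes with one. The range between both kinds of start was therefore narrower among ribosomal protein genes than among all genes, a difference that was not tested. Shares as high as theirs leave less room for a range. For genes with a neighbouring start, the 500 bp window can also count a peak that stands at the neighbour.

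Although peaks were frequent, their signal was ordinary. The median signal over the 79 genes was 235.0, against 253.0 over all 5179 genes with a promoter peak, and the lowest and highest were 131.1 and 925.8. The middle of these genes was stronger than 56.2% of the thresholded peaks, against 62.2% for all genes with a peak. The 5179 genes stood at 3726 distinct peaks, so a peak shared by several genes counts more than once among them. At summits also within 500 bp of another coding start, the median was 275.7 for ribosomal protein genes and 269.5 for all genes. At the other summits it was 213.8 and 237.0. Large-subunit genes had a median of 241.4 and small-subunit genes of 218.3. The 555 peaks with the highest signal held 9 of the 79 genes, 11.4%, against 15.1% of all genes with a peak. In the strongest 5558 regions of replicates 1, 2 and 3, the median ribosomal protein gene stood above 62.4%, 50% and 64.4% of regions, a mean of 58.9 ± 7.80 (SD, n = 3).

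**Figure D2:**
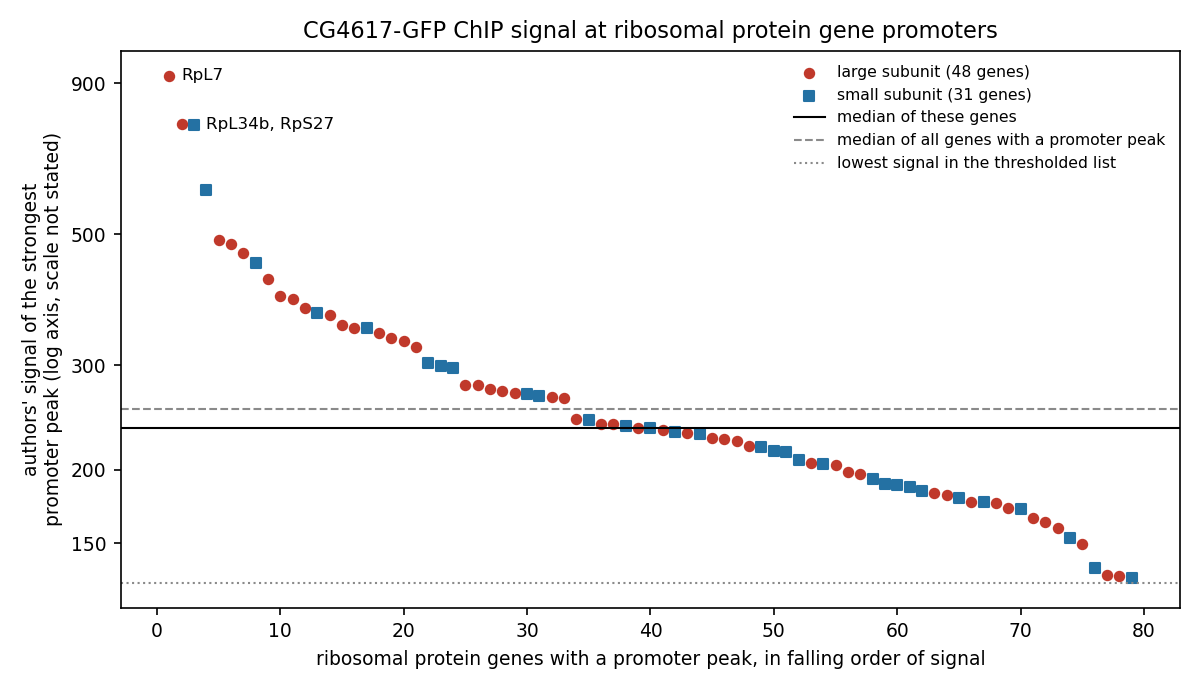
Points are the 79 ribosomal protein genes with a promoter peak in falling order of the authors' signal, on a log axis, with large-subunit genes as red circles and small-subunit genes as blue squares. RpL7, RpL34b and RpS27 stand apart at the top, and the median of these genes, 235.0, lies just under that of all genes with a promoter peak, 253.0.

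RpL7, a large-subunit protein, had the strongest peak. Its signal was 925.8 in the thresholded list, rank 33, and 482.6, 285.3 and 173.4 in the lists of replicates 1, 2 and 3, at ranks 5, 71 and 121. The summit lay 28 bp downstream of its nearest TSS on 2L, and the start of Ripalpha, whose product interacts with replication protein A, lay 58 bp from it. RpL34b followed with 767.9, and with 256.0, 304.6 and 200.9 in the replicates at ranks 112, 62 and 84. RpS27, a zinc-finger protein of the small subunit, had 766.1, and 280.4, 265.5 and 205.7 at ranks 66, 94 and 77. Its summit stood 0 bp from the annotated start, 144 bp from that of the nucleoporin gene Nup37. These 3 genes were high in every replicate, with no replicate placing any of them below rank 121.

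The next of the 10 strongest were closer together. RpS25, which in mammals and yeast is needed for initiation at some viral internal ribosome entry sites, had 594.4 and ranks 91, 348 and 230 in replicates 1, 2 and 3. RpL14 had 489.3, beside Nelf-E, a subunit of the negative elongation factor. RpL41, the smallest ribosomal protein, had 480.8. RpL23A, a protein at the mouth of the exit tunnel, had 464.9 and was the strongest of the genes without a neighbouring start. RpS21 had 447.5, RpL29 had 419.5 and RpLP0 had 393.7. Of these 10 genes, RpL23A alone had no other coding start within 500 bp of its summit. RpLP0 varied most in rank among the replicates, at 275, 3377 and 699.

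At the low end of the thresholded list, whose lowest signal was 128.8, stood RpS7 with 131.1, RpL7A with 132.0, RpL21 with 132.6, RpS14a with 136.5 and RpLP1 with 149.4. The replicates differed over these. RpS7 ranked 3875, 7537 and 9863 in replicates 1, 2 and 3, so its summit was among the 5558 strongest regions of replicate 1 only. The sta gene, whose product is the SA protein of the small subunit and whose mutants gave it the name stubarista, was like it, with a thresholded signal of 214.9 and ranks of 962, 7322 and 8055. RpS7 and sta were the 2 genes with support from 1 replicate.

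The acidic stalk proteins, which recruit elongation factors to the large subunit, had peaks at all 3 genes. RpLP0, the stalk base, had 393.7, RpLP2 had 239.0 and RpLP1 had 149.4. The genes that encode a ribosomal protein fused to ubiquitin or a ubiquitin-like protein had moderate peaks, with 297.0 at RpS30, 207.7 at RpS27A and 171.9 at RpL40. RpS3, which lies at the mRNA entry and also has DNA repair activity, had 176.1. RpL22, whose fly protein carries an extra N-terminal domain, had 334.1. All of these values lie within the range of the other ribosomal protein genes.

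Summits lay close to the start. The median distance to the nearest own TSS was 40 bp for the 79 genes, against 91 bp for all genes with a peak, and 64 of 79, 81.0%, lay within 100 bp, against 53.5% of all. A gene with many annotated starts has a shorter distance for that reason, and 37 of the 79 had 1 TSS, 46.8%, against 64.9% of all genes with a peak. With 1 TSS, the median distance was 51 bp for ribosomal protein genes and 88 bp for all genes. Among genes with no coding start within 1000 bp, it was 17 bp against 76 bp. In those, 20 of 27 summits, 74.1%, lay within 50 bp of a start, against 36.9% of all genes of that kind. Over replicates the median signed offset was -26.5 ± 21.7 bp (SD, n = 3), so an upstream shift of this size is close to the spread between replicates.

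Among the genes without a neighbouring start, summits often stood almost on the TSS. Examples lay 1 bp away at RpL21, 3 bp at RpL12 and RpL37-1, 6 bp at RpL30, 7 bp at RpS3A and 8 bp at RpS29. RpS3A is the only one of the 93 genes on chromosome 4. Its peak had a signal of 218.3 and ranks 2561, 3891 and 1168 in the replicates. By its strongest summit the farthest of this kind was RpS24, at 171 bp downstream of its start, but a weaker thresholded summit lay 50 bp from it.

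**Figure D3:**
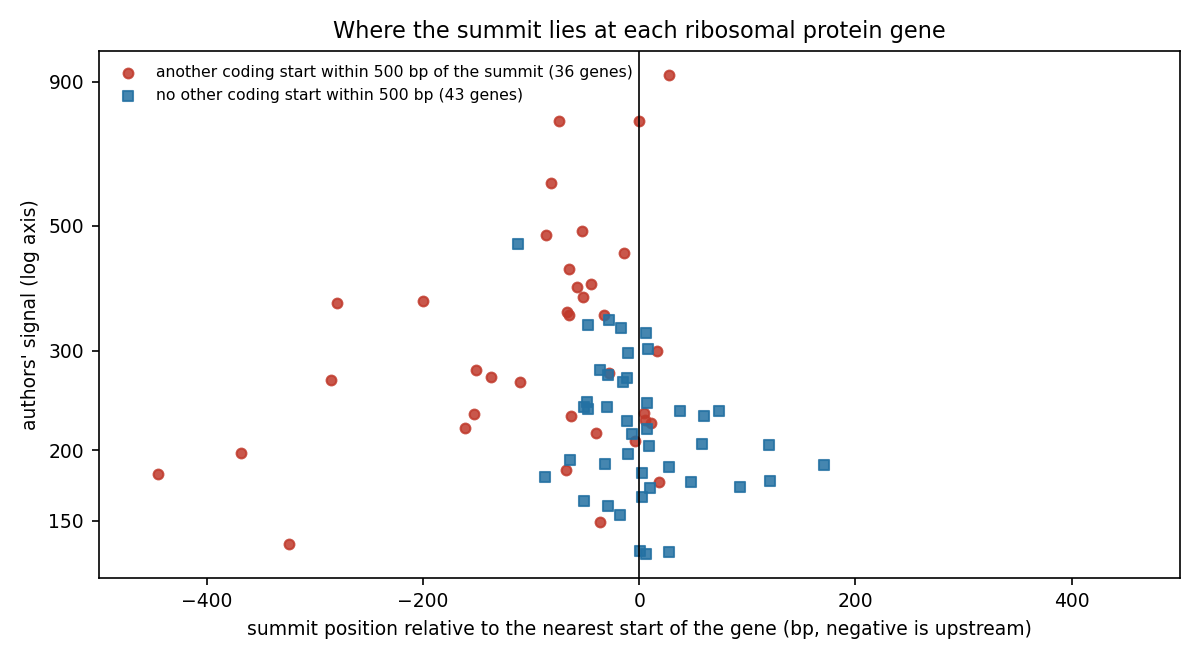
Each point is 1 ribosomal protein gene, placed by the distance of its strongest promoter summit from its nearest own TSS in bp (negative is upstream) and by the authors' signal on a log axis. Blue squares, genes whose summit is at no other coding start, gather around 0, while red circles, genes with a shared summit, reach upstream to -445 bp.

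Shared start regions held 36 of the 79 peaks, 45.6%, against 55.5% of all genes with a peak. The count follows the window, with 21 of 75 peaks, 28.0%, against 42.0% of all genes at 250 bp, and 57 of 85, 67.1%, against 67.5% at 1000 bp. In 35 of the 36 at least 1 of the other genes lay on the opposite strand. At these genes the median signal was 275.7 and the median offset -64.0 bp, while the 43 genes with an unshared summit had a median signal of 213.8 and a median offset of -7 bp. The same order held over all genes, with medians of 269.5 at shared and 237.0 at unshared summits. Signal at a shared start cannot be assigned to either gene from these lists.

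At 14 of the 36 shared peaks the other gene's start was nearer the summit than that of the ribosomal protein gene. RpL13, with signal 277.7, had its summit 151 bp upstream of its own start and 67 bp from that of Dref, the gene of the factor that binds the DRE. RpS28a, with 266.7, had it 285 bp upstream and 91 bp from Axn, the fly axin of Wnt signalling. Among the others were RpLP0-like, RpL18, RpL23, RpL29, RpL3, RpL34a, RpS13, RpS14a, RpS15Ab and RpS20. A stricter rule counted a gene only where no other coding start was nearer to its strongest promoter summit. By it, 65 of 93 ribosomal protein genes kept a peak, 69.9%, against 27.3% of all genes. Weaker summits were not used in this rule, such as one 135 bp from the start of RpL23.

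The 14 genes without a promoter peak were of 2 kinds, named here after their values were seen. Ordinary single genes were RpL36A, RpL39, RpS6, RpS9, RpS15 and RpS26, to which RpL10Ab can be added as the broadly used copy of its set. The rest were further copies, among them RpL10Aa, RpL22-like, RpL37-2, RpS10a, RpS19b and RpS28-like. The pooled list, which reaches below the IDR threshold, held a summit at 86 of the 93 genes, 92.5%, against 52.6% of all genes. In it were 6 of the 7 in the broadly used kind and 1 of the 7 further copies. By symbol alone, with RpL10Ab as a copy, 6 single genes and 8 copies had no promoter peak. Of these, 1 single gene and 6 copies were absent from the pooled list. How broadly each gene is used was not measured here.

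Among the broadly used genes, RpS9 fell just short of the list, with 126.1 in the pooled list and 41.66, 42.55 and 31.31 in replicates 1, 2 and 3. RpL39, a small protein in the exit tunnel, had 119.4 in the pooled list and 71.50, 28.05 and 29.13 in the replicates. RpL10Ab had 111.8, and 65.21, 59.70 and 26.66 in the replicates. These 3 genes were listed by every replicate, while RpL36A, with 84.51 in the pooled list, was not in that of replicate 3. Each of them reached the 5558 strongest regions of some replicate. RpL10Ab did so in replicates 1 and 2, at ranks 4571 and 4568. RpL39 and RpL36A did so in replicate 1 only, at 4057 and 4422, and RpS9 in replicate 3 only, at 5412. RpS6, the substrate of S6 kinase downstream of TOR, had 84.09 in the pooled list and 39.77, 31.33 and 18.90 in replicates 1, 2 and 3, at ranks 7501, 9695 and 13113. Its nearest thresholded summit, of signal 155.3, lay 573 bp upstream of its start and 24 bp from that of bys, the gene of the small-subunit assembly factor bystin. RpS6 was therefore outside the 5558 strongest regions of every replicate, although its signal was above the median of the whole list in replicate 1 (19.64) and below it in replicates 2 (34.04) and 3 (25.67).

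RpS26, near the mRNA exit of the small subunit, had 71.46 in the pooled list, 33.07 and 26.84 in replicates 1 and 2, and no region in replicate 3. RpS15 was in the lists of replicates 1 and 2, with 21.03 and 45.18, and in neither the pooled list nor that of replicate 3. Its nearest thresholded summit was 554 bp upstream of the start, just past the window. Windows of 1000 bp raised the count to 85 of 93, against 40.3% of all genes, and windows of 250 bp gave 75, against 32.9%.

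Peaks were less frequent among duplicated genes than among single ones, a difference that was not tested. There were 13 sets with 27 copies, and 19 of the 27 copies, 70.4%, had a promoter peak, against 60 of the 66 single genes, 90.9%, and 37.1% of all protein-coding genes. Sets were taken by symbol, so genes ending in -like count as copies. Among them RpL7-like, RpL24-like and RpLP0-like had peaks, with coding sequences only 54.5%, 50.3% and 46.6% identical to their partners. RpL22-like and RpS28-like had none. The RpL7, RpL24 and RpLP0 sets are among those with a peak at all copies. In 6 sets all copies had a peak, in 6 sets some had, and in the RpL10A set none had. These calls depend on the window: RpS19b and RpL10Ab had thresholded summits at 507 and 617 bp. With a window of 1000 bp, 21 of the 27 copies had a peak, against 40.3% of all protein-coding genes. The RpS19 set was then no longer mixed and the RpL10A set no longer without a peak. The calls also depend on the assignment, since at RpL34a, RpLP0-like, RpS14a, RpS15Ab and RpS28a another coding start lay nearer the summit. With those peaks not counted, the RpL34, RpLP0, RpS14 and RpS15A sets would also be mixed. Copies were compared by the signals in the same list, so each contrast is within the same libraries, and no test was made.

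In the RpL34 set, both copies had a peak and RpL34b was the stronger in all 3 replicates. RpL34b had 256.0, 304.6 and 200.9 in replicates 1, 2 and 3, and RpL34a had 139.3, 90.97 and 50.50. Their coding sequences were 75.0% identical, and their start regions, from 250 bases before to 50 after the most upstream TSS, 47.2% by global alignment. Start regions of unrelated genes gave the same level, with a median of 47.8% and a range of 39.1% to 58.5% over all 2145 pairs of the 66 single genes. The start regions of these copies were therefore no more alike than those of other ribosomal protein genes. The summit at RpL34a lay nearer to Trmt61 (92 bp) than to RpL34a (137 bp upstream). The stronger peak of this set stood beside CG8132, whose start was 195 bp from it.

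Both copies of RpS14 lie in tandem on X, and a different peak lay within 500 bp of each. RpS14b had 189.3 in the thresholded list and 104.7 and 92.29 in replicates 1 and 2, and no region in replicate 3. RpS14a had 136.5, and 55.82, 52.53 and 47.39 in replicates 1, 2 and 3, with its summit 324 bp upstream and 67 bp from Dhdds. RpS14b was higher in 2 replicates and was not listed in the third. Their coding sequences were 97.8% identical, while their start regions, at 50.5%, were within the range of unrelated genes. RpS15Aa and RpS15Ab, with coding sequences 98.2% identical and start regions 46.2%, had 153.4 and 184.3. RpS15Aa had 77.46, 43.02 and 41.34 in replicates 1, 2 and 3, and RpS15Ab had 79.21, 56.92 and 38.48, so the order of these copies was not the same in all 3. The labels and files do not say what was done with reads that match more than 1 place, so the values at these near-identical copies are uncertain where reads reach into coding sequence.

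In each of the 6 mixed sets, 1 copy had no promoter peak. The sets of RpL22, RpL37, RpS10 and RpS19 are among those with 2 copies, and the RpS28 set has 3, of which RpS28a and RpS28b had peaks. RpL22 had 334.1 and RpL22-like, a testis-rich copy, was in none of the 5 lists, with its nearest thresholded summit 109451 bp away. RpL37-1 had 182.7 and RpL37-2 was in none of the lists. RpS10b had 236.8, while RpS10a had a region in replicate 3 only, of signal 22.60. RpS19a had 179.1 and RpS19b, a germline copy, had a region in replicate 2 only, of signal 59.42. A thresholded summit of signal 136.6 lay 507 bp upstream of RpS19b, just past the window, and 125 bp from the start of CG5854. RpS28b had 235.0 and RpS28a 266.7, with RpS28a the higher in replicates 1 and 2 (127.5 and 103.7, against 104.3 and 84.13 at RpS28b) and RpS28b in replicate 3 (73.75, against 43.94 at RpS28a), and RpS28-like was in none of the lists. Each of the 6 copies without a peak in these sets was absent from at least 2 of the 3 replicate lists.

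**Figure D4:**
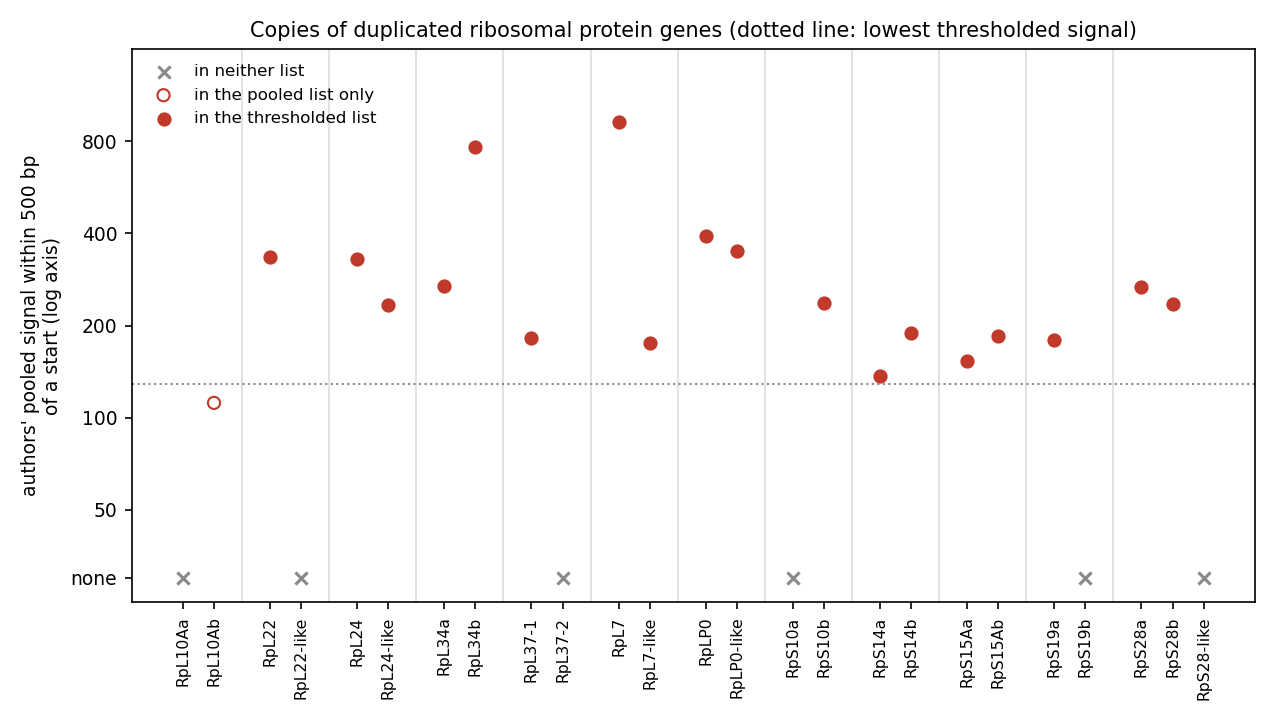
For each copy of 12 of the 13 duplicated sets, the authors' pooled signal of the strongest summit within 500 bp of a start is drawn on a log axis. Filled circles are in the thresholded list, open circles only in the pooled list, and crosses in neither, which holds for 6 copies.

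The copies named for likeness to a ribosomal protein but known from yeast as assembly factors had peaks. RpL7-like had 175.6, RpL24-like 233.1 and RpLP0-like 351.8. Their partners were higher in the same list, with 925.8 at RpL7, 329.7 at RpL24 and 393.7 at RpLP0. The replicates kept this order in the first 2 sets wherever both copies were listed. In the RpLP0 set replicate 2 had 126.3 at RpLP0-like and 75.23 at RpLP0, so that order was not stable. The summit at RpLP0-like was 20 bp from the start of 14-3-3zeta and 67 bp upstream of its own.

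Ribosomal protein promoters held the DRE, Motif 1 and TCT letters more often than all promoters did, and the GAGA and E-box letters less often, by counts that were not tested. In windows from 250 bases before to 50 after the most upstream TSS, the DRE core was in 28 of 93 ribosomal protein genes, 30.1%, against 9.36% of all promoters, and the Motif 1 core in 15, 16.1%, against 7.69%. The TCT letters stood within 10 bases of the most upstream TSS in 35, 37.6%, against 2.85%, and within 10 bases of any of the gene's TSSs in 59, 63.4%, against 4.22%. GAGA was in 16, 17.2%, against 29.7%, the E-box in 9, 9.68%, against 17.6%, and the TATA letters in 45, 48.4%, against 45.8%. A match describes letters and shows no binding.

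The share of ribosomal protein genes with a peak was similar with and without each of the DRE, Motif 1 and TCT letters. With the DRE core, 24 of 28 had a peak, and without it 55 of 65 had one. Over all genes 73.1% of promoters with the DRE core and 33.4% without it had a peak. With Motif 1, 12 of 15 had a peak, and without it 67 of 78 had one, against 83.5% and 33.2% over all genes. With the TCT letters at any start, 51 of 59 had a peak, and without them 28 of 34 had one, against 44.3% and 36.8% over all genes. The median signal was 239.0 with and 229.6 without the TCT letters, and 234.9 with and 235.0 without the DRE core. It was 220.3 with and 236.8 without Motif 1, and 226.1 with and 265.8 without the TATA letters. For GAGA it was 256.3 with and 233.1 without, and for the E-box 331.2 with, over 6 genes, and 233.1 without. With GAGA, 16 of 16 had a peak, and without it 63 of 77 had one, while over all genes the shares were 28.1% with and 40.8% without. With the E-box, 6 of 9 had a peak, and without it 73 of 84 had one, against 48.1% and 34.7% over all genes. These contrasts among 93 genes were not tested. Within 100 bp of the summit, the DRE core was found at 19 of the 79 peaks, 24.1%, against 10.1% of the 3726 peaks that were the strongest at some gene's promoter, and Motif 1 at 12, 15.2%, against 11.4%. The other letters were below that level, the E-box at 5, 6.33%, against 15.9%, GAGA at 10, 12.7%, against 18.1%, and TATA at 15, 19.0%, against 24.0%.

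Gene sets that work beside the ribosomal proteins also had promoter peaks. The share over all protein-coding genes was 37.1%. Among mitochondrial ribosomal protein genes, 56 of 73, 76.7%, carried one, with a median signal of 227.9 and a median distance to the start of 78.5 bp. Translation factors, taken as symbols starting with eIF, eEF or eRF, had one at 38 of 54, 70.4%, with a median signal of 300.5. Their median distance to the start was 55.0 bp, and 52.6% of those with a peak had 1 TSS. A list of 23 ribosome assembly and growth control symbols, picked by hand, had one at 18 of the 22 members found in the annotation, 81.8%. Their median signal was 315.4 and their median distance to the start 64.0 bp. Of these 18 genes, 13 had a shared peak, and the gene's own start was the nearest at 11. Among the listed genes were S6k, the kinase of RpS6, with 616.6, and Nop56, a nucleolar protein of RNA methylation, with 482.8. M1BP, the Motif 1 factor, had 227.3, while Myc had none. The list also holds Dref, whose peak is the one counted for RpL13. The median distance of the summit from the start was 40 bp for cytoplasmic and 78.5 bp for mitochondrial ribosomal protein genes, and the median signals were 235.0 and 227.9. Of the genes with a peak, 46.8% of the cytoplasmic and 91.1% of the mitochondrial ones had 1 TSS, and 36 of 79 and 41 of 56 peaks were shared, so the distances are not like for like. These contrasts were not tested.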

How the data were processed

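ChIP-seq region lists of 3 replicates were used. Per the listing deposited with each sample, each replicate list came from that library and 1 control alignment, the pooled list from all 3 libraries and the control, and the thresholded list from these by IDR. The signal of a region is the authors' deposited value, and depth in reads is unknown. No label or header names the aligner, the caller or the IDR threshold, so these are not given in the sources used. Only dm6 lists were used.

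Genes and 19275 coding TSS positions came from Ensembl release 115, and sequence from the RefSeq copy of Release 6, whose arms contain every region. Analysis used Python 3.11.15, with global alignment in Biopython. Summit assignment was tested on simulated data. With 1 group, no test was run.

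The genes and lists were chosen with earlier results of these data known. Named by rule were the 10 strongest, the 5 weakest, all without a peak, every copy, some by role, and genes at their summits. The other named genes were picked with their values in view. Some genes are counted but not reported here by name. Alternatives tried were the window, the TSS used, a stricter peak set, interval overlap, nearest-gene assignment, subsets of genes, and leaving out each replicate.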

Additional observations from a re-analysis of the deposited data

How the results depend on the processing

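The count of ribosomal protein genes with a promoter peak was 75 (all genes 32.9%) and 85 (40.3%) with windows of 250 and 1000 bp. It was 79 (35.3%) with the most upstream TSS only, and 72 (29.1%) where the peak interval had to cover a TSS. It was 65 (27.3%) where no other coding TSS was nearer the strongest summit, and 76 without the genes ending in -like. Among the 2779 strongest peaks it was 48, 51.6% of the genes against 23.5% of all genes, with 11 duplicated copies, and the median gene then stood above 71.3% of the list, since weaker peaks were removed. Among genes with no coding start within 1000 bp it was 27 of 34 (all such genes 20.3%), since fewer genes were counted. Peaks inside the strongest regions of both remaining replicates were found at 61 to 70 genes when each replicate was left out in turn. The mean replicate position ran from 56.2% to 63.4% in the same way. With whole lists of all 3 replicates, such peaks were found at 71 genes. For the counts without each replicate, with whole lists and without the genes ending in -like, no share over all genes is given, so they describe these genes only. The number of shared peaks followed the window, 21 at 250 bp and 57 at 1000 bp, and the median offset became 0 bp with the most upstream TSS only, since other starts were not counted. No paired analysis was possible because there is 1 group. The dm3 lists were not run. Depth is unknown, so a gene absent from a list cannot be read as unbound.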
